A study of Mus musculus with 6 samples.

Results

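The genes described here encode the enzymes that release fatty acids from stored and circulating fat, together with the proteins that switch them on and off. They are Pnpla2, Pnpla3, Lipe, Mgll, Abhd5, G0s2, Lipa, Lipc, Lpl and Lipg, chosen by name from a fixed list and found in the deposited table through their GENCODE M21 symbols, 10 of the 55385 genes of the table. These genes, the lists of related genes and the motifs were chosen with earlier results of these data known. The shares called among them are set beside all genes as a description and are not independent of the data. Poly(A) RNA came from about 40 mg of liver of male wild-type C57BL/6 mice. Per the labels, mice that were 6 to 8 weeks old received a high-fat diet for 10 weeks, underwent vertical sleeve gastrectomy (VSG, removal of most of the stomach) or a sham operation, and stayed on the same diet for a further 12 weeks, so that both groups carried diet-induced obesity into surgery and were fed fat after it. There were 3 sham livers (replicates 1 to 3) and 3 VSG livers (replicates 4 to 6), each from 1 mouse, and no lean or unoperated group is analysed here. Whether the mice were fed or fasted when the livers were taken is not given in the sources used here.

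Intracellular lipolysis proceeds in steps. Adipose triglyceride lipase, encoded by Pnpla2, removes the first fatty acid from triglyceride at the surface of the lipid droplet, hormone-sensitive lipase (Lipe) acts mainly on the resulting diglyceride, and monoglyceride lipase (Mgll) releases the last fatty acid. Abhd5 (CGI-58) activates adipose triglyceride lipase and G0s2 inhibits it, while Pnpla3, a relative of Pnpla2, sits on droplets and can compete for Abhd5. Lysosomal acid lipase (Lipa) digests triglyceride and cholesteryl ester that reach the lysosome. Hepatic lipase (Lipc), lipoprotein lipase (Lpl) and endothelial lipase (Lipg) are secreted relatives that act on lipoproteins at the vessel wall. In liver, fatty acids released from droplets feed oxidation and lipoprotein assembly.

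Total counts ran from 22804397 to 24191778 per library, and the 10 genes together took 0.131% to 0.155% of the counts in sham and 0.0581% to 0.0809% in VSG libraries. Levels are given as CPM (counts relative to library size, scaled with TMM factors from 0.897 to 1.15), as mean ± SD with n = 3, and as FPKM (CPM per kilobase of summed exon) where genes are compared with each other. Differences are log2 fold changes of VSG over sham from the quasi-likelihood test of edgeR, with p-values adjusted over all 14454 genes tested. The tissue label fitted its markers, since the hepatocyte gene Alb stood between 35793 and 81751 CPM in every library. The 7 listed markers of fat tissue summed to 6.60 to 9.13 CPM in sham and 7.55 to 13.4 CPM in VSG libraries. Of these, Lep had 0 counts in all libraries and Adipoq, Retn and Plin1 had at most 1, 1 and 2 counts in any library, whereas Cfd reached 66 counts and Slc2a4 25 counts, both in sham libraries, and Adrb3, with 127 to 305 counts, was called higher after VSG. Markers of muscle summed to at most 0.148 CPM per library. The 8 neutrophil markers summed to 2.56 to 14.1 CPM in sham and 146 to 1798 CPM in VSG libraries. Macrophage markers summed to 405 to 923 CPM in sham and 867 to 2342 CPM in VSG libraries, and 4 of 11 were called higher, beside 6.79% of all tested genes. Marco alone supplied 3.91 to 26.7 CPM of that sum in sham and 101 to 687 CPM in VSG libraries, and Trem2 and Gpnmb had negative log2 fold changes (-1.40 and -0.59) that were not called (adjusted p = 0.150 and 0.728 by edgeR). Markers of stellate cells and fibroblasts were lower in sum, at 529 to 681 CPM in sham and 242 to 451 CPM in VSG libraries without overlap, and all 6 had negative log2 fold changes (median -0.90), of which that of Reln was called (-1.27, adjusted p = 0.0328 by edgeR). The part of any of these cell types in the falls of the lipases was not tested. Because the tissue was sequenced in bulk, fewer cells of a type and less RNA per cell cannot be told apart in any result here.

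Transcripts of several lipases and of the inhibitor G0s2 were less abundant after VSG. Of the 10 genes, 9 had enough counts to be tested, and 5 of them (G0s2, Lipg, Mgll, Lipa and Pnpla2) fell at an adjusted p under 0.05 by edgeR, where 7.87% of all tested genes were called lower. None rose, either by adjusted p, by unadjusted p under 0.05 (0 genes) or by DESeq2 (0 genes), where of all genes 6.79% were called higher by edgeR, 16.9% were higher at an unadjusted p under 0.05 and 8.73% were called higher by DESeq2. The median log2 fold change of the 9 tested genes was -0.58, beside 0.03 for all genes tested. In 6 of the 9 genes every VSG library lay below every sham library, which held for 19.8% of all tested genes. Lpl alone among the 9 had a positive log2 fold change, and it did not pass the test. The count of 5 depended on single livers. It was 0 when sham replicate 3 was left out (0.748% of all genes called lower) and 0 when VSG replicate 6 was left out (0.812%). In both of those fits 5 of the genes were lower at an unadjusted p under 0.05, as were 12.1% of all genes in the former and 12.9% in the latter. Leaving out sham replicate 1 or sham replicate 2 gave 3 genes (5.11% and 3.31% of all genes), leaving out VSG replicate 4 gave 4 (3.95%) and leaving out VSG replicate 5 gave 5 (9.59%). With all libraries, 5 genes were called lower by DESeq2 (9.98% of all genes), with RLE size factors (7.94%), with total counts (10.5%), with no filter beyond 1 count (4.7%) and with at least 10 counts in every library (8.08%), and 4 by limma-voom (7.26%) and by limma on log2(FPKM + 1) (7.54%).

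**Figure D1:**
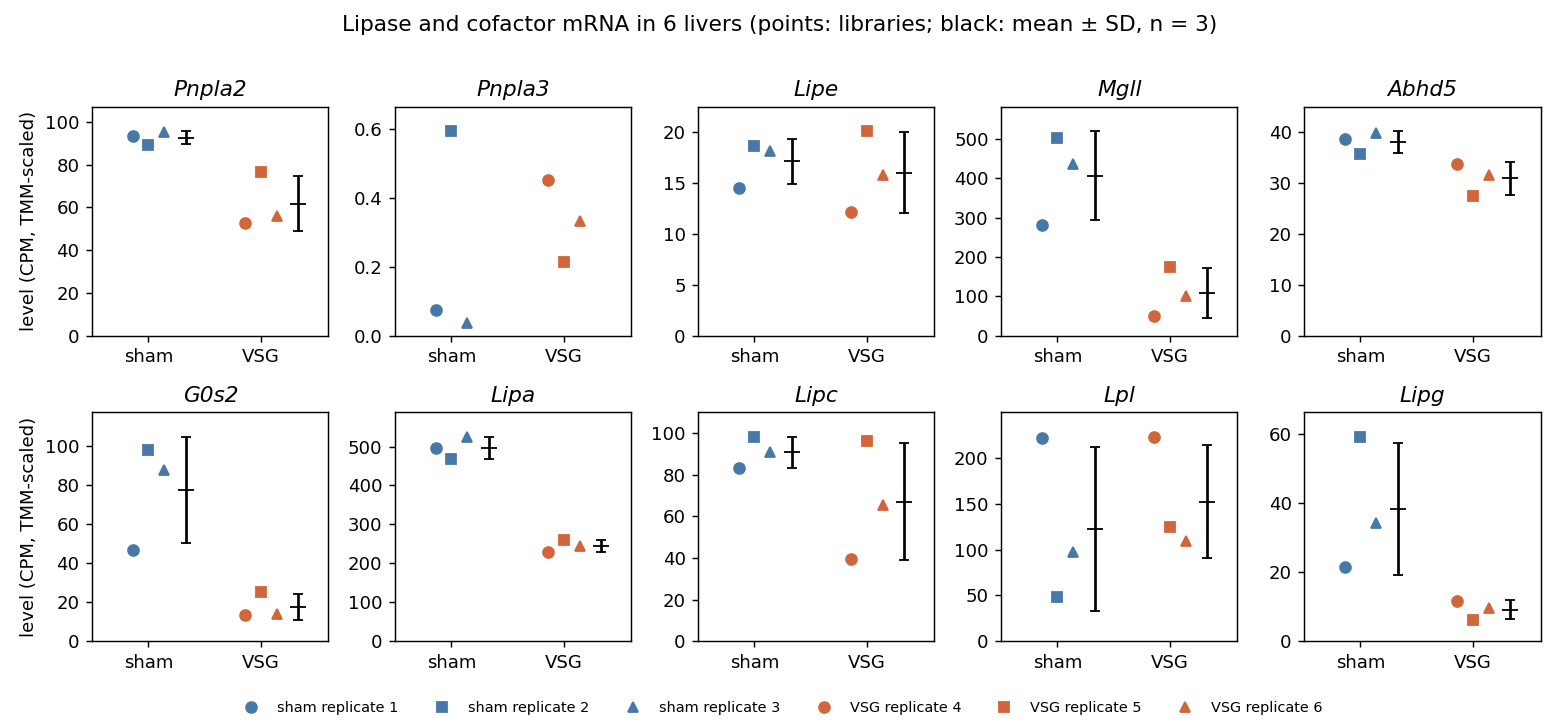
Level of each of the 10 genes (y axis, TMM-scaled CPM from 0) in the 3 sham and 3 VSG livers, with 1 point per library and the mean ± SD in black (not drawn for Pnpla3, which had at most 13 counts per library). Mgll, G0s2, Lipa, Lipg, Pnpla2 and Abhd5 show all VSG points below all sham points, while Lpl, Lipc, Lipe and Pnpla3 overlap.

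**Figure D2:**
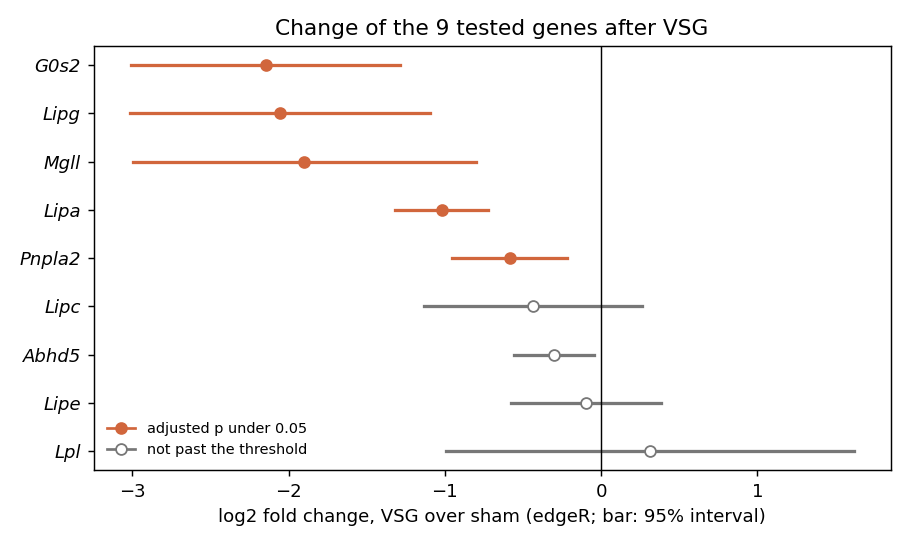
Log2 fold change of VSG over sham (x axis) for the 9 tested genes, with bars for the 95% interval and filled points for an adjusted p under 0.05. G0s2, Lipg and Mgll lie near -2, Lipa near -1 and Pnpla2 at -0.58, and the intervals of Lipc, Lipe and Lpl include 0.

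The droplet lipase and its partners are described first. Pnpla2 (ENSMUSG00000025509.15, chr7:141455198-141460743, plus strand, GRCm38) stood at 93.3, 89.5 and 95.3 CPM in sham replicates 1 to 3 and at 52.8, 76.7 and 55.8 CPM in VSG replicates 4 to 6. The sham values were within a few CPM of each other, and VSG replicate 5 was the VSG liver closest to them. The difference of -0.58 on the log2 scale (SE 0.154, adjusted p = 0.0494 by edgeR) was a fall that only just passed the threshold. It did not pass without sham replicate 1 (adjusted p = 0.1004), sham replicate 2 (0.103), sham replicate 3 (0.161), VSG replicate 4 (0.106) or VSG replicate 6 (0.159), and without VSG replicate 5 the adjusted p was 0.0102. With all libraries it also missed the threshold by limma-voom (adjusted p = 0.0518) and by limma on log2(FPKM + 1) (0.0506).

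G0s2, the inhibitor of that lipase (ENSMUSG00000009633.3, chr1:193272161-193273217, minus strand), had the largest fold change of the 9 tested genes, with a 95% interval (-3.01 to -1.28) that overlapped those of Lipg and Mgll. Its levels were 46.7, 98.2 and 87.9 CPM in sham and 13.4, 25.3 and 13.8 CPM in VSG livers. Sham replicate 1 was the lowest sham liver, and still held more G0s2 than VSG replicate 5, the highest VSG liver. The log2 fold change was -2.15 (SE 0.362, adjusted p = 0.0170 by edgeR), a 4.42-fold fall. This call was lost when sham replicate 3 (adjusted p = 0.0828) or VSG replicate 6 was left out (0.0777).

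Abhd5, the activator (ENSMUSG00000032540.16, chr9:122351608-122381524, plus strand), was at 38.7, 35.7 and 39.8 CPM in sham and 33.8, 27.4 and 31.5 CPM in VSG livers. The groups did not overlap, but the gap between the lowest sham and the highest VSG liver was small. With a log2 fold change of -0.30 (SE 0.108, 95% interval -0.56 to -0.04), its unadjusted p of 0.0275 became an adjusted p of 0.103 in edgeR and the gene was not called. Abhd5 shares 950 exon bases with the antisense gene A730085K08Rik, which had 11 counts over all libraries against 4932 of Abhd5.

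Pnpla3 (ENSMUSG00000041653.5, chr15:84167837-84187236, plus strand) was close to absent. It had 2, 13 and 1 counts in the sham and 10, 5 and 7 counts in the VSG libraries, where 3 counts were taken as the floor (counting error only). Of the sham livers, only replicate 2 was above the floor. The gene was too low to pass the count filter with all libraries, and no fold change is given.

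The ratio of each partner to Pnpla2, taken per length within a library, is free of the scaling between libraries. The FPKM ratio of G0s2 to Pnpla2 was 1.74, 3.81 and 3.20 in sham replicates 1 to 3 and 0.882, 1.14 and 0.855 in VSG replicates 4 to 6. In FPKM the inhibitor exceeded the lipase in every sham liver, and in VSG livers the values were similar (ratio 0.960 ± 0.160, n = 3, beside 2.91 ± 1.06). The level of this ratio depends on the summed exon lengths (871 bases for G0s2, 3020 for Pnpla2), and the isoforms expressed were not examined. These lengths cancel in the difference between groups. The mean log2 ratio differed by -1.54 (VSG minus sham), with an exact two-sided permutation p of 0.1, the smallest that 3 against 3 can give. For the activator Abhd5 the ratio was 0.208 ± 0.00499 in sham and 0.264 ± 0.0742 in VSG livers (n = 3). VSG replicate 5, at 0.181, was below all sham livers, and VSG replicates 4 and 6, at 0.325 and 0.286, were above them (exact two-sided permutation p = 0.4). Pnpla3 to Pnpla2 had an exact permutation p of 0.3 and rested on at most 13 counts of Pnpla3 per library.

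The later steps of the cascade differed from each other. Lipe (ENSMUSG00000003123.15, chr7:25379527-25398710, minus strand) was low and overlapped fully, with 14.5, 18.6 and 18.1 CPM in sham and 12.1, 20.0 and 15.8 CPM in VSG livers. The highest and the lowest of the 6 values were both VSG livers. The log2 fold change was -0.10 (95% interval -0.58 to 0.38, adjusted p = 0.760 by edgeR), and it was 0.071 without VSG replicate 4. An antisense gene, 4732471J01Rik, overlaps 918 of its exon bases and had 105 counts in all against 2345 of Lipe, so a small part of the value is uncertain if the strand was not used in counting.

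Mgll (ENSMUSG00000033174.17, chr6:88724412-88828360, plus strand) was among the most abundant of the 10 genes in sham livers. It was at 281, 501 and 436 CPM in sham and at 49.8, 175 and 101 CPM in VSG livers. The spread was wide in both groups, with VSG replicate 5 again the highest VSG liver, yet no value of one group reached the other. Mgll fell 3.73-fold (log2 fold change -1.90, SE 0.461, adjusted p = 0.0397 by edgeR). The call was lost without sham replicate 1 (adjusted p = 0.0573), sham replicate 2 (0.101), sham replicate 3 (0.133) or VSG replicate 6 (0.135). The antisense gene Gm26588 overlaps 167 exon bases of Mgll and had 850 counts against 37401.

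Lipa, the lysosomal lipase (ENSMUSG00000024781.16, chr19:34492318-34527474, minus strand), had little spread within either group. Its levels were 496, 467 and 525 CPM in sham and 229, 260 and 245 CPM in VSG livers. No VSG liver came near the lowest sham liver. The log2 fold change was -1.02 (95% interval -1.32 to -0.72, adjusted p = 0.00836 by edgeR), a 2.03-fold fall and the smallest adjusted p of the 9 genes. Without sham replicate 3 the adjusted p was 0.0548 and without VSG replicate 6 it was 0.0542, with log2 fold changes of -0.98 and -1.02. Macrophages also express this enzyme, and their summed markers overlapped between the groups (405 to 923 CPM in sham, 867 to 2342 CPM in VSG libraries). Their part in the level of Lipa was not tested.

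Of the 3 secreted lipases Lipg was the one called. Lipg (ENSMUSG00000053846.5, chr18:74939322-74961263, minus strand) encodes endothelial lipase, which prefers the phospholipids of high-density lipoprotein. It was at 21.5, 59.2 and 34.2 CPM in sham and 11.6, 6.28 and 9.72 CPM in VSG livers. Sham replicate 2 was far above the other sham livers, and the lowest sham liver was still above the highest VSG liver. The log2 fold change of Lipg was -2.06 (SE 0.403, adjusted p = 0.0240 by edgeR). The call was lost when sham replicate 3 (adjusted p = 0.0899) or VSG replicate 6 was left out (0.0918), and without sham replicate 2 the log2 fold change was -1.60 with an adjusted p of 0.0468. The 8 endothelial markers summed to 295 to 350 CPM in sham and 303 to 381 CPM in VSG libraries, with adjusted p-values from 0.112 for Cdh5 to 0.965 for Vwf.

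Lipc (ENSMUSG00000032207.10, chr9:70798128-70952226, minus strand), the lipase that hepatocytes themselves secrete, was at 83.3, 98.1 and 90.9 CPM in sham and at 39.7, 96.0 and 65.5 CPM in VSG livers. VSG replicates 4 and 6 were below all sham livers, whereas VSG replicate 5 lay within their range. The log2 fold change of -0.44 (95% interval -1.13 to 0.26) had an adjusted p of 0.329 in edgeR. Leaving out VSG replicate 5 gave -0.81 (adjusted p = 0.0573), and leaving out VSG replicate 4 gave -0.17 (adjusted p = 0.579).

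Lpl (ENSMUSG00000015568.16, chr8:68880491-68907448, plus strand), which adult hepatocytes express little, varied more between livers of a group than between the groups. It stood at 221, 48.3 and 97.1 CPM in sham and at 223, 125 and 109 CPM in VSG livers. The highest sham liver and the highest VSG liver were nearly equal. The log2 fold change was 0.31 (95% interval -0.99 to 1.62, adjusted p = 0.710 by edgeR), and its sign turned without sham replicate 2 (-0.069) and without VSG replicate 4 (-0.066). Without sham replicate 1 it was 1.06, with an adjusted p of 0.164. The order of the sham livers for Lpl (replicate 1, then 3, then 2) was the order of their summed macrophage markers, at 923, 614 and 405 CPM, and in VSG livers replicate 4 was highest for both (2342 CPM of macrophage markers), but replicate 5 exceeded replicate 6 for Lpl and not for the markers (867 and 1476 CPM). The part of macrophages in the level of Lpl was not tested.

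Per length, the order of the genes differed between the groups. In sham livers G0s2 (89.1 ± 31.3 FPKM), Mgll (79.9 ± 22.3 FPKM) and Lipa (73.2 ± 4.22 FPKM) led, and their ranges overlapped. Lipc (42.2 ± 3.45 FPKM) and Pnpla2 (30.7 ± 0.983 FPKM) followed, each apart from its neighbours in the order. Lpl, Lipg and Abhd5 came next with overlapping ranges, then Lipe at 2.90 ± 0.380 FPKM, and Pnpla3 was last with at most 0.383 FPKM. In VSG livers Lipa (36.1 ± 2.31 FPKM), Lipc (31.2 ± 13.1 FPKM), Mgll (21.4 ± 12.4 FPKM), Pnpla2 (20.5 ± 4.31 FPKM), G0s2 (20.1 ± 7.77 FPKM) and Lpl (14.5 ± 5.90 FPKM) formed a row in which each overlapped the next. Lipc exceeded Lipa in VSG replicate 5, at 44.7 and 38.3 FPKM. The mean of Lipg was below that of Lipe, at 1.95 ± 0.574 and 2.71 ± 0.677 FPKM, with overlapping ranges. The sum of the 10 genes was 344 ± 51.0 FPKM in sham and 154 ± 35.0 FPKM in VSG livers. G0s2 made up 25.3% ± 5.76 of that sum in sham and 12.8% ± 2.003 in VSG livers, and Pnpla2 made up 9.06% ± 1.56 and 13.3% ± 0.409.

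**Figure D3:**
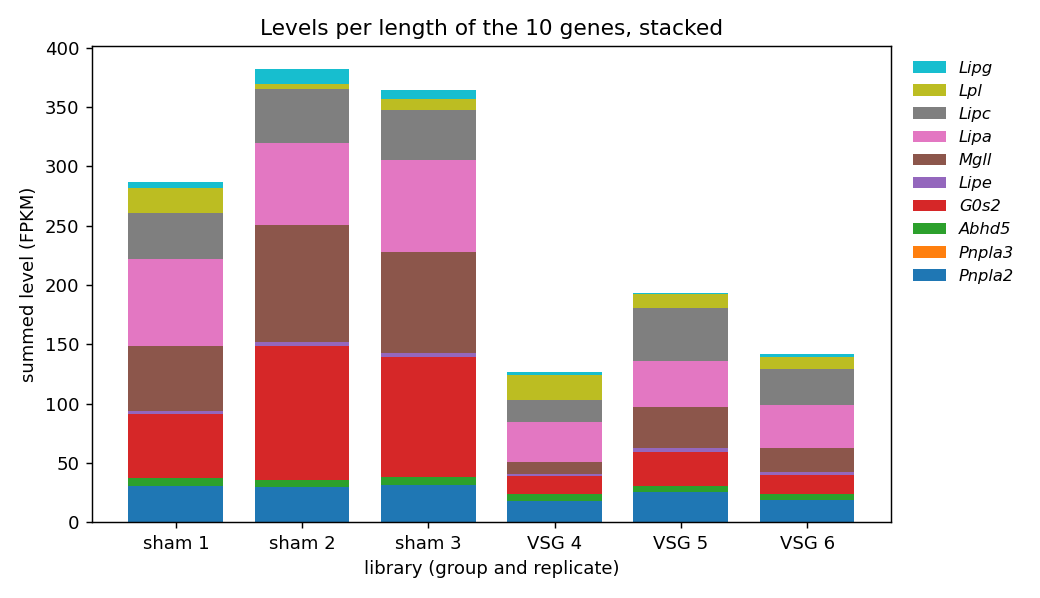
Levels per length (y axis, FPKM) of the 10 genes stacked for each of the 6 libraries (x axis), with 1 colour per gene. The sham stacks reach 286 to 382 FPKM and the VSG stacks 127 to 193 FPKM, and the G0s2 and Mgll segments shrink most in height.

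Promoter windows of 300 bases (250 before to 50 after the start of transcription, RefSeq, GRCm38.p6) were found for 8 of the 10 genes, and not for Lpl and Lipg. Those of the 4 called genes with a window are shown because these genes fell together. The capitals mark matches, on either strand, to CACGTG (the E-box), GTAAACA (the core bound by FoxO factors), TATAAA (the TATA box), GGGCGG (the GC box) or CCAAT. Also searched, and matched in none of the 8 windows, were the consensus direct repeats of PPAR and of LXR and a sterol response element. Of all windows, only 0.0396%, 0.0152% and 0.0913% hold these exact strings. Their absence from 8 windows therefore says nothing about these genes. Where a gene has several starts, the window nearest to its GENCODE M21 start was used.
Pnpla2, chr7:141454938-141455237, plus strand: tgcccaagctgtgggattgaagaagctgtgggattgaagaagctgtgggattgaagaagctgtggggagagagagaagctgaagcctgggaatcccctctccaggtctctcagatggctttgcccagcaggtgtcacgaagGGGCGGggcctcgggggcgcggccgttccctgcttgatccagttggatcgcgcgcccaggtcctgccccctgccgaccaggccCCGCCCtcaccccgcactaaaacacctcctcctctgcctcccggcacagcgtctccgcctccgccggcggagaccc
G0s2, chr1:193273139-193273438, minus strand: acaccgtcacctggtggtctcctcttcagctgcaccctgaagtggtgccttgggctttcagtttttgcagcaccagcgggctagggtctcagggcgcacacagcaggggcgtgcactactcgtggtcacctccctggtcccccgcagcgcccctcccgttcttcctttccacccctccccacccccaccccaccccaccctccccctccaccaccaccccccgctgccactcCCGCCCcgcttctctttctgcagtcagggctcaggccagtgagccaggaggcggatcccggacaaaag
Mgll, chr6:88724162-88724461, plus strand: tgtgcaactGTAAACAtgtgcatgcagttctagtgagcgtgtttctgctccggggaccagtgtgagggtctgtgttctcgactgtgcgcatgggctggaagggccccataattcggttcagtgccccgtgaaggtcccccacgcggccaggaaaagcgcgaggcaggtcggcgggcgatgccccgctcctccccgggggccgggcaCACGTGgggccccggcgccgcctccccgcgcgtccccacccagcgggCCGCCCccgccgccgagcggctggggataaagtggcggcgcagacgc
Lipa, chr19:34527425-34527724, minus strand: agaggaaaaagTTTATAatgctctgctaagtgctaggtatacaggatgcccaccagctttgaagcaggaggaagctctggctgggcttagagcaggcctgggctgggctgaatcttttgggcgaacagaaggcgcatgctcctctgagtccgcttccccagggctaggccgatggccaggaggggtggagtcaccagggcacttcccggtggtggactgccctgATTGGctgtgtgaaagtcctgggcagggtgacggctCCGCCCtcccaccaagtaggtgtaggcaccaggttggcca

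All 4 windows hold the GC box, as do 35.7% of the 32851 windows of the table. Windows of genes that were not called hold such matches too. The GC box is in those of Pnpla3, Lipe and Abhd5, the E-box in that of Lipe, and CCAAT in those of Pnpla3 and Lipc. The window of Mgll alone among the 4 holds the E-box, 44 bases before the start, and the FoxO core, 241 bases before it. Of all windows, 7.15% hold the E-box and 3.65% the FoxO core. The window of Lipa holds a CCAAT match on the reverse strand 26 bases before the start (37.4% of all windows hold CCAAT) and a reverse match to TATAAA 239 bases before it (13.6% of all windows). G0s2 and Pnpla2 hold matches to the GC box only. The windows of G0s2, Mgll and Pnpla2 have a GC content of 66.7%, 70.0% and 65.3%, and that of Lipa 59.3%. These matches describe letters and no binding was measured in these livers.

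Several transcripts of proteins that share the droplet surface with these lipases fell too. In the list of droplet-bound partners, 7 of 9 tested genes were called lower and 0 higher, beside 7.87% and 6.79% of all tested genes. The 7 include Cidea. With at least 10 counts required in every library, which removes Cidea, 6 of 8 were called lower (8.08% of all genes). At an unadjusted p under 0.05, 0 were higher (16.9% of all genes), as were 0 by DESeq2 (8.73%). The median log2 fold change was -1.32, against 0.03 for all genes. This list was chosen with earlier results of these data known, so its share is a description only. Plin2, the main coat protein of liver droplets, was at 759, 665 and 765 CPM in sham and 241, 300 and 248 CPM in VSG livers, a log2 fold change of -1.47 (SE 0.153, adjusted p = 0.00635 by edgeR). Cidec, which promotes droplet fusion, had a log2 fold change of -6.47 (SE 0.440, adjusted p = 0.00177), from 77.8, 69.4 and 125 CPM to 1.63, 0.939 and 0.477 CPM. Plin4 fell by 3.04 on the log2 scale (adjusted p = 0.0115). Cidea was at 1.03, 11.8 and 15.1 CPM in sham livers, with replicate 1 far below the others, and had 3, 0 and 0 counts in VSG libraries. The mean of Cidea was at least 68.7-fold lower after VSG, as a bound from 3 counts per VSG library, and since it passed the count filter only through the sham libraries its call is not used as support. Cidec and Plin2 kept an adjusted p under 0.05 in all 6 fits that left out 1 library, and Plin4 lost it without sham replicate 3 and VSG replicate 6 (up to 0.0648). Plin5, which holds Pnpla2 and Abhd5 at the droplet, was at 31.0, 62.6 and 40.8 CPM in sham and 21.8, 27.5 and 13.2 CPM in VSG livers and did not pass (log2 fold change -1.10, adjusted p = 0.0723). Hilpda, like G0s2 a protein inhibitor of adipose triglyceride lipase, was at 2.79 ± 0.491 and 2.54 ± 0.395 CPM (log2 fold change -0.14, 95% interval -0.69 to 0.41, adjusted p = 0.691). The count of 7 was 2 when sham replicate 3 (0.748% of all genes called lower) or VSG replicate 6 (0.812%) was left out. It was 4 when sham replicate 2 (3.31%) or VSG replicate 4 (3.95%) was left out.

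Of the other acylglycerol and ester hydrolases, 25 of 27 were tested, 6 were called lower and 2 higher, beside 7.87% and 6.79% of all tested genes, so that the count of higher genes was near the background, and the median log2 fold change was -0.44. The largest falls were those of Ces1d, Ces2c and Ces1g, carboxylesterases that include the microsomal triglyceride hydrolase of mouse liver, and of Abhd6, which like Mgll cleaves monoglyceride. Abhd6 was at 31.1, 61.5 and 41.7 CPM in sham and 9.94, 16.4 and 13.8 CPM in VSG livers, a log2 fold change of -1.74 (SE 0.290, adjusted p = 0.0167 by edgeR). Without sham replicate 3 or VSG replicate 6 Abhd6 was not called (adjusted p up to 0.0757). Ces1d, Ces2c and Ces1g differed by -3.22, -3.09 and -2.24 on the log2 scale (adjusted p = 0.0413, 0.00227 and 0.0366), and their values are uncertain because these genes belong to families of related copies among which reads could have been split. Ces2c kept its call in all 6 fits without 1 library, Ces1d lost it when sham replicate 2 or 3 or VSG replicate 4 or 6 was left out (up to 0.141), and Ces1g lost it when any library other than VSG replicate 4 was left out (up to 0.130) and with limma-voom. Those called higher were Ddhd1 and Pnpla6, phospholipases rather than triglyceride lipases, which differed by 0.98 and 0.53 on the log2 scale (adjusted p = 0.0200 and 0.0329). Ddhd1 was not called when sham replicate 2 or 3 or VSG replicate 6 was left out (up to 0.0989), and Pnpla6 lost its call whichever of the 6 libraries was left out (up to 0.103) and with total counts. The count of 8 called genes was 4, all lower, when sham replicate 2 was left out (3.31% of all genes called lower). It was 2, both lower, when sham replicate 3 (0.748%) or VSG replicate 6 (0.812%) was left out.

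Among partners of the secreted lipases, 1 gene passed the test. Of 13 tested genes 1 was called lower and 0 higher, with a median log2 fold change of -0.31. At an unadjusted p under 0.05, 3 were lower and 0 higher, beside 17% and 16.9% of all genes. By DESeq2 3 were called lower and 0 higher, beside 9.98% and 8.73% of all genes. That 1 of 13 is 7.69%, near the 7.87% of all tested genes called lower. The called gene was Pcsk6, a proprotein convertase, at 169, 226 and 210 CPM in sham and 66.9, 125 and 90.9 CPM in VSG livers, a log2 fold change of -1.10 (SE 0.240, adjusted p = 0.0313 by edgeR). Pcsk6 lost its call when sham replicate 2 or 3 or VSG replicate 4 or 6 was left out (up to 0.122). The count of 1 became 3 without VSG replicate 5 (9.59% of all genes called lower). Lmf1, which is needed to fold the secreted lipases, was at 27.8 ± 3.29 and 27.9 ± 0.894 CPM (log2 fold change 0.01, 95% interval -0.26 to 0.27). Gpihbp1, the capillary anchor of lipoprotein lipase, was at 15.1 ± 2.995 and 14.7 ± 2.29 CPM (95% interval -0.49 to 0.41). Angptl4, an angiopoietin-like inhibitor of lipoprotein lipase, was at 69.5, 153 and 108 CPM in sham and 18.5, 60.0 and 54.1 CPM in VSG livers, groups that did not overlap, but it was not called (log2 fold change -1.32, adjusted p = 0.103). Angptl8 differed by -0.07 on the log2 scale (95% interval -0.88 to 0.74, adjusted p = 0.899). Apoc3, an inhibitor of lipoprotein lipase, was at 680 ± 112 and 437 ± 99.8 CPM (log2 fold change -0.64, adjusted p = 0.0910). Apoc2, its activator, had 244 counts in all 6 libraries together, and 646 of its 813 exon bases lie in exons of Gm44805 on the same strand, so its level is uncertain.

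The 9 tested genes of lysosomal lipid handling included the cholesterol exporters Npc1 and Npc2 and the regulators Tfeb and Tfe3. By edgeR 0 were called in either direction, beside 7.87% lower and 6.79% higher of all tested genes. At an unadjusted p under 0.05, 1 was lower and 1 higher (17% and 16.9% of all genes). By DESeq2 1 was lower (9.98% of all genes), and 1 was called higher without VSG replicate 5. With 9 genes these counts are near the background. The median log2 fold change was 0.01.

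Genes of hormone and cAMP signalling, which control lipolysis upstream, were called about as often as genes in general. Of 19 tested genes 2 were lower and 2 higher, at a median of -0.15, close to the 7.87% and 6.79% of all tested genes called in these directions. Adcy6, an adenylyl cyclase, and Prkaca, a catalytic subunit of protein kinase A, fell by 0.83 and by 0.49 on the log2 scale (adjusted p = 0.0155 and 0.0286 by edgeR). Pde4b, a phosphodiesterase that degrades cAMP, and Adrb3, a receptor for catecholamines, differed by 1.32 and 0.87 on the log2 scale (adjusted p = 0.0463 and 0.0431). Adrb3 was at 5.83, 5.80 and 6.07 CPM in sham and 7.50, 13.0 and 11.8 CPM in VSG livers. None of these 4 calls held in every fit without 1 library. Adcy6 lost it without sham replicate 3 or VSG replicate 6 (up to 0.0804), Prkaca when any library other than VSG replicate 5 was left out (up to 0.122), Pde4b for any other than sham replicate 1 and VSG replicate 5 (up to 0.167) and Adrb3 for any other than VSG replicate 4 (up to 0.144). Pde4b and Adrb3 also missed the threshold with total counts and with both limma fits. The count of 4 was 2 when sham replicate 1 or VSG replicate 4 was left out. It was 1 when sham replicate 2 was, and 0 when sham replicate 3 or VSG replicate 6 was. Of all genes, 5.11%, 3.95%, 3.31%, 0.748% and 0.812% were called lower in these fits, in that order.

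Among transcription factors known to act on lipase genes, 4 of 14 were called lower and 1 higher, beside 7.87% and 6.79% of all tested genes, so that the count of higher genes was near the background, and the median log2 fold change was 0.02. Pparg, which activates genes of fat storage and of G0s2 in fat cells, was at 30.8, 28.0 and 28.3 CPM in sham and 13.7, 13.2 and 10.2 CPM in VSG livers, a log2 fold change of -1.23 (SE 0.134, adjusted p = 0.00692 by edgeR), and it kept its call in all 6 fits without 1 library. Srebf1, which drives lipogenic genes and Pnpla3, had a log2 fold change of -0.78 (adjusted p = 0.0142), lost without sham replicate 3 or VSG replicate 6 (up to 0.0756). Foxo3 and the coactivator gene Ppargc1a differed by -0.70 and -0.79 on the log2 scale (adjusted p = 0.0308 and 0.0371), and the calls of both were lost when sham replicate 2 or 3 or VSG replicate 4 or 6 was left out (up to 0.123 and 0.131). Sirt1, a deacetylase that acts on several of these factors, had a log2 fold change of 0.81 (adjusted p = 0.0217), lost when any sham library or VSG replicate 6 was left out (up to 0.107). Foxo1 was at 59.6, 139 and 105 CPM in sham and 61.0, 64.3 and 60.6 CPM in VSG livers and was not called (adjusted p = 0.131). The count of 5 called factors was 2 when sham replicate 2 was left out, 3 when VSG replicate 4 was, and 1 when sham replicate 3 or VSG replicate 6 was. Of all genes, 3.31%, 3.95%, 0.748% and 0.812% were called lower in these fits, in that order. Ppara, the main fatty acid sensor of hepatocytes, was at 188, 285 and 276 CPM in sham and 68.8, 195 and 179 CPM in VSG livers, a log2 fold change of -0.76 (95% interval -1.68 to 0.17, adjusted p = 0.217).

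**Figure D4:**
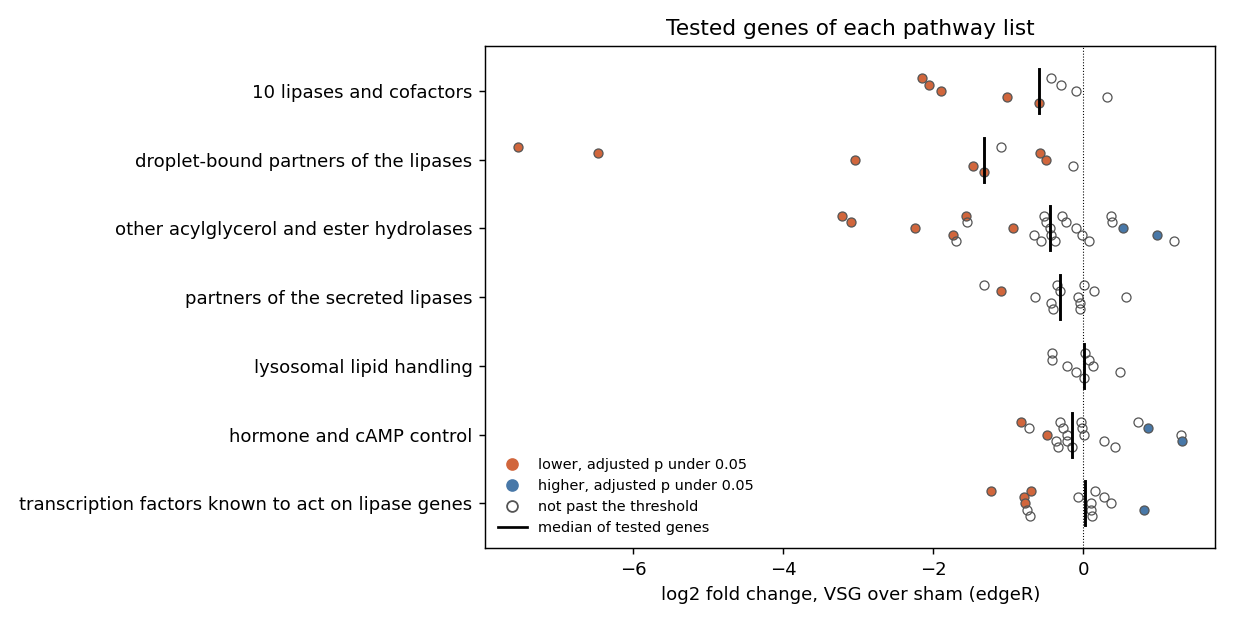
Log2 fold change of VSG over sham (x axis) for each tested gene of the 10 lipases and cofactors and of 6 pathway lists (rows), with orange points called lower, blue points called higher, open points not called and a black bar at the median of the list. The droplet-bound partners have the lowest median (-1.32), the lipases and cofactors follow (-0.58), and the lysosomal list is centred at 0.01. The leftmost point is Cidea, whose fitted value depends on the prior count because its VSG libraries were at or under the floor of 3 counts.

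Genes with the profile most like that of each called gene were sought by Pearson's r of log2 CPM over the 6 libraries among 9964 genes with a mean of at least 5 CPM, as a description in which the 2 groups contribute to r. For Lipa the nearest were Spg7, Prpf19 and Plin2 (r = 0.999, 0.998 and 0.997), of which Plin2 is in the droplet list. For Mgll they were Cmtm4, Tlr5 and Pcsk6 (r = 0.999, 0.998 and 0.998), of which Pcsk6 is in the list of secreted lipase partners. G0s2 was most like Atp5d, Iars2 and Polr2f (r = 0.999, 0.998 and 0.998). Pnpla2 was most like H2-Q6, Cys1 and Angptl2 (r = 0.999, 0.996 and 0.995), and Lipg was most like Tm2d1, Snx19 and Blvrb (r = 0.994, 0.993 and 0.992). None of these sets shares a gene with another.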

How the data were processed

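Libraries were strand-specific and made from poly(A) RNA, 1 mouse each. Per the labels, the authors aligned reads with STAR 2.6.0 to mm10 and deposited raw counts per gene made with featureCounts (2.0.3 in the submitters' processing notes). Which annotation was counted, whether strand was used and how reads that fit several genes were handled is not given in the sources used here. The deposited table also gives each gene's summed exon length in bases, an annotation value (unit: other) used for FPKM only. Of 55385 genes, 54487 matched GENCODE M21 by identifier and version.

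The quasi-likelihood test was that of edgeR 4.0.16 (R 4.3.3). Low genes were dropped by filterByExpr with a minimum count of 10 and a total of 15, libraries were scaled by TMM, and glmQLFit and glmQLFTest were run with operation as the only term. Adjusted p-values are Benjamini-Hochberg over all 14454 genes. The SE is the log2 fold change divided by the square root of F. Ratios within a library were compared by exact permutation, which cannot go below 0.1. A floor of 3 counts per library covers counting error only. Samples were grouped by their titles, and p-values measure the spread between 3 mice a group. The fit was tested on simulated data in which all genes had the same dispersion. That simulation does not cover genes with a wider spread between mice.

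Named genes were the 10 genes, up to 4 called genes in each direction of each list and 15 fixed partners, of which 1 is not reported here. The genes, lists and motifs were chosen with earlier results of these data known. Alternatives were DESeq2 1.42.0, limma 3.58.1 (voom, and log2(FPKM + 1)), RLE factors, total counts, other count filters, dropping single libraries, and 2 as prior count.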

Additional observations from a re-analysis of the deposited data

How the results depend on the processing

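No paired analysis was possible because the replicate numbers are not shared between the groups (1 to 3 in sham, 4 to 6 in VSG). Outside the fits without 1 library, the directions of all 9 tested genes held under the other 8 alternatives, and the only call to change was that of Pnpla2, which missed the threshold with limma-voom (log2 fold change -0.61, adjusted p = 0.0518) and on the log2(FPKM + 1) scale (-0.58, 0.0506). Total counts moved the median of all genes by -0.14. The sign turned for Lipe without VSG replicate 4 (0.071) and for Lpl without sham replicate 2 (-0.069) and without VSG replicate 4 (-0.066). With fewer libraries, log2 fold changes ran from -2.53 to -1.94 for G0s2, from -2.35 to -1.60 for Lipg, from -2.44 to -1.55 for Mgll, from -1.09 to -0.97 for Lipa, from -0.79 to -0.48 for Pnpla2, from -0.37 to -0.24 for Abhd5, from -0.81 to -0.17 for Lipc, from -0.31 to 0.071 for Lipe and from -0.069 to 1.06 for Lpl. In the same fits the number of called genes ran from 0 to 5 among the 10, from 2 to 8 among droplet-bound partners, from 2 to 11 among other hydrolases, from 0 to 3 among partners of secreted lipases, from 0 to 1 in the lysosomal list, from 0 to 6 in hormone and cAMP control and from 1 to 5 among transcription factors. Counts also moved by over 1.5 times with DESeq2 for partners of secreted lipases (3 against 1) and the lysosomal list (1 against 0), with total counts for partners of secreted lipases (2), and for hormone and cAMP control with limma-voom (2 against 4) and on the log2(FPKM + 1) scale (2). Of all genes, the share called lower ran from 0.748% to 9.59% in the fits without 1 library. It was 9.98% with DESeq2, 10.5% with total counts, 7.26% with limma-voom and 7.54% on the log2(FPKM + 1) scale. The counts of droplet-bound partners include Cidea where it was called. The cause of the changes in these counts was not tested. The log2 difference of the ratio to Pnpla2 ran from -1.87 to -1.31 for G0s2 when 1 library was left out, and for Abhd5 from 0.13 (without VSG replicate 4) to 0.55 (without VSG replicate 5), against 0.30 with all libraries. With 1 FPKM added to both genes it was -1.50 and 0.32. For Pnpla3 the difference ran from 0.67 to 3.22 over all alternatives. Pnpla3 passed to the test with DESeq2, with no filter beyond 1 count and in some fits without 1 library. With at most 13 counts per library, no change of Pnpla3 is read from these values.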
